A study of Mus musculus with 9 samples.

Results

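Mouse aorta carries a coat of perivascular fat, and 34 adipocyte genes were followed in RNA sequencing of whole aortic tissue. The genes were chosen by symbol as known genes of fat cells, 14 of them typical of brown fat and 20 expressed by adipocytes in general. All 34 were found among the 37668 genes of the deposited table, and 33 reached 1 FPKM (a fragment count per length of transcript and per size of the library) in at least 1 group. Leptin was the exception. The 33 genes belong to the 14225 genes analysed under the same minimum.

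The series asked how loss of the angiotensin II receptor gene Agtr1a from smooth muscle cells or from endothelial cells alters the aortic transcriptome. There were 3 groups of 3 libraries, and all 9 mice were males aged 90 days on a background labelled 129T2SvEmsJ:C57Blk/6J. Sm22Cre mice carried the floxed receptor allele and an Sm22-Cre transgene, driven by the smooth muscle promoter of Tagln (SM22). Cdh5Cre mice carried the floxed allele and a Cdh5-Cre transgene, driven by the promoter of the endothelial cadherin gene. Floxed mice carried the same allele with no Cre, so the floxed allele was common to every group and no group without it was analysed here. As background on the drivers, Sm22-Cre is also active in the developing heart, and deletion of Pparg with an Sm22-driven Cre has been reported to leave mouse vessels without perivascular fat. Neither promoter is that of an adipocyte gene.

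The table holds 1 FPKM value per gene and group, made by the authors from the 3 libraries together. No SD, interval or p-value can therefore be given, every difference below has no replicate check, and the depth behind each value is unknown. Ratios are given on the scale log2(FPKM + 1), on which low genes differ less than their plain ratios, and as plain ratios of the FPKM values where a fold is named. A gene passed when its ratio on the log2(FPKM + 1) scale was at least 1.5-fold, and counts of ratios merely above or below 0 are named as such. Agtr1a itself stood at 1.21 FPKM in Sm22Cre, 1.32 FPKM in Cdh5Cre and 1.75 FPKM in floxed aortas, lowest in Sm22Cre and past 1.5-fold in no comparison. That value covers the whole gene in all cells of the aorta, so it does not check deletion in the targeted cells. The summed FPKM of all genes was 500015 in Sm22Cre, 604454 in Cdh5Cre and 495724 in floxed aortas. The tissue label was met by smooth muscle markers: Myh11, the smooth muscle myosin heavy chain, stood at 1267, 1142 and 1341 FPKM in the same order of groups, while Acta2 is listed at 0 in every group with the status HIDATA, which marks too many fragments for an estimate, which is not read as absence.

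Brown adipocytes burn fatty acids for heat. Noradrenaline from sympathetic nerves acts on the beta-3 adrenergic receptor, lipolysis frees fatty acids from small droplets, and uncoupling protein UCP1 lets protons return across the inner mitochondrial membrane without making ATP. White adipocytes share the droplet, lipolysis and adipokine genes, store triglyceride and secrete more leptin. Fat around the mouse thoracic aorta resembles brown fat, whereas fat around the abdominal aorta holds more white adipocytes.

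The summed level of the fat genes was almost the same in all 3 groups, while single genes ranged widely. In floxed aortas they ran from Lep at 0.732 FPKM to Fabp4 at 310.0 FPKM. The median there was 5.58 FPKM over brown genes and 37.2 FPKM over general genes. The 34 genes summed to 1748 FPKM in Sm22Cre, 1787 FPKM in Cdh5Cre and 1729 FPKM in floxed aortas. That was 0.350%, 0.296% and 0.349% of all FPKM in the same order of groups, the smaller share in Cdh5Cre standing beside a larger sum over all genes. The 14 brown fat genes summed to 195 FPKM in Sm22Cre, 205 FPKM in Cdh5Cre and 203 FPKM in floxed aortas. The 20 general adipocyte genes summed to 1553, 1582 and 1526 FPKM. In bulk tissue a lower value can come, among other sources, from fewer fat cells or from less RNA per cell, and these cannot be told apart. FPKM is scaled to the library, so RNA of other cells also enters it, and its part was not tested. In Sm22Cre aortas 0 of the 33 genes differed from floxed by 1.5-fold, beside 0.619% of all genes analysed higher and 0.921% lower. In Cdh5Cre aortas 3 were higher (Dio2, Retn, Cfd), beside 8.33% of all genes, and 6 lower (Ppara, Prdm16, Acsl1, Acaca, Acly, Scd1), beside 6.02%.

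**Figure D1:**
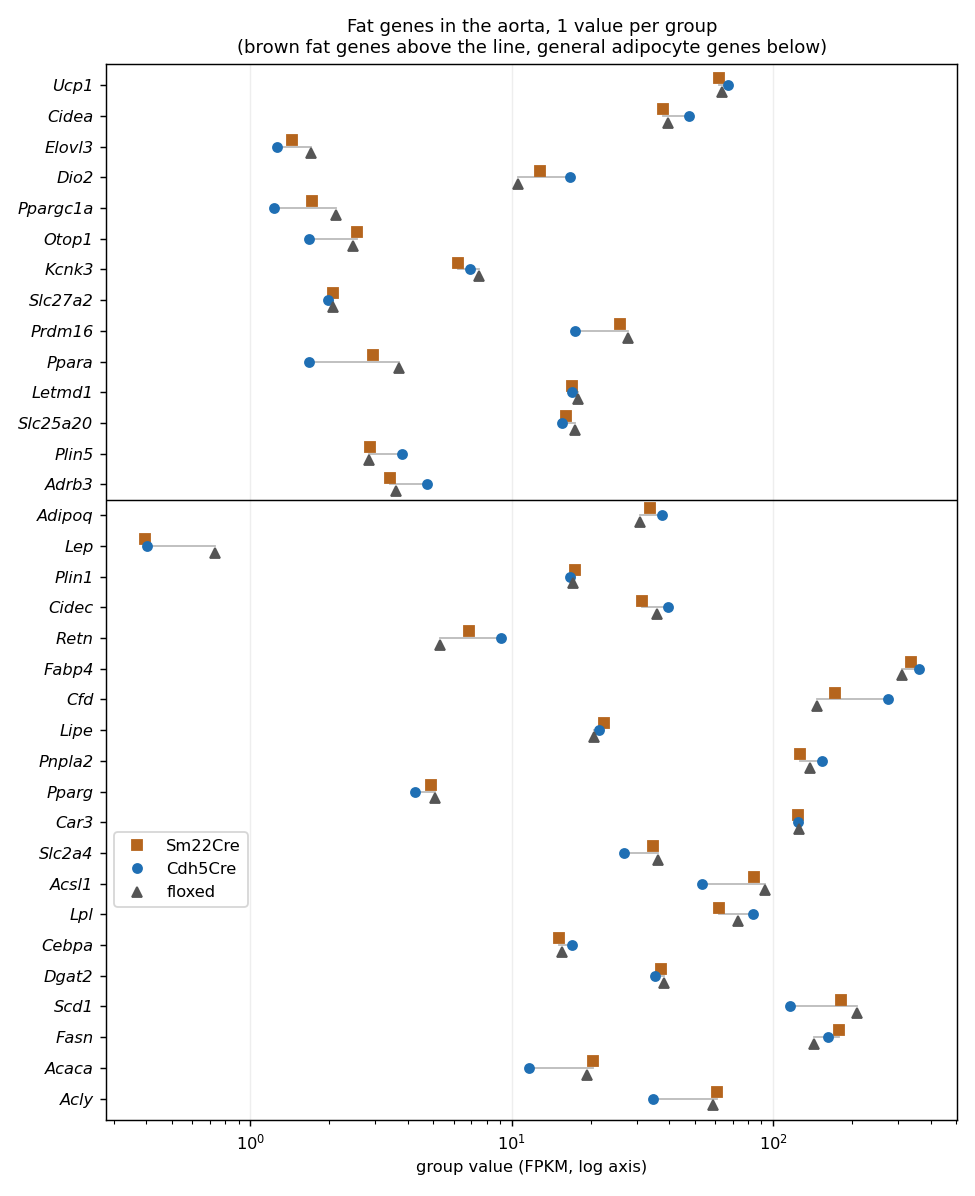
FPKM of each of the 34 fat genes (log axis), with 1 symbol per group: squares Sm22Cre, circles Cdh5Cre, triangles floxed. Symbols of most genes lie close together, with Fabp4 highest at 337, 361 and 310.0 FPKM, Lep lowest, and Cdh5Cre to the left of both other groups for Scd1, Acsl1, Acly, Acaca, Prdm16 and Ppara.

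The thermogenic genes of brown fat differed little between groups. Ucp1, the uncoupling protein that defines brown and beige fat, stood at 62.0 FPKM in Sm22Cre, 67.4 FPKM in Cdh5Cre and 63.8 FPKM in floxed aortas. Its highest group was 1.09 times its lowest, so the brown fat signature gene was well above the minimum in every group. Ucp1 lies on chromosome 8 at 85814247 to 85822355 (mm9), with no other gene listed at its locus. Cidea, a droplet protein that enlarges lipid droplets in brown adipocytes, was at 38.0 FPKM in Sm22Cre, 47.7 FPKM in Cdh5Cre and 39.5 FPKM in floxed aortas. Its Cdh5Cre level was 1.21 times the floxed level, a log2 ratio of 0.27 on the log2(FPKM + 1) scale.

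The promoter of Ucp1 is shown because Ucp1 is the most specific gene of the brown list and was nearly even across the groups. The window is the RefSeq promoter on GRCm38.p6, 250 bases before to 50 bases after the gene's start, chr8:83290098-83290397, plus strand, 5′ to 3′. In this window and those further on, capitals mark matches on either strand to 5 motifs, the TATA box, the CCAAT box, the E box, the GC box and the sterol regulatory element, whose letters are spelled out with their counts below. The Ucp1 window holds no match to any of them.
Ucp1: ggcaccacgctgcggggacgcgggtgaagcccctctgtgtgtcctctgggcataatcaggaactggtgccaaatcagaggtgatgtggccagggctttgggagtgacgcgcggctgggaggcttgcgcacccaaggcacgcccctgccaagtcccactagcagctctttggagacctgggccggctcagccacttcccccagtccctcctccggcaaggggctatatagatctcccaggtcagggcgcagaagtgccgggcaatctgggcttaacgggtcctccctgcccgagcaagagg

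The other thermogenic members were lower in level. Kcnk3, a background potassium channel of brown fat that striated muscle also expresses, stood at 6.20 FPKM in Sm22Cre, 6.90 FPKM in Cdh5Cre and 7.47 FPKM in floxed aortas. Letmd1, a mitochondrial protein needed for thermogenesis in mouse brown fat, was at 17.1 FPKM in Sm22Cre, 17.0 FPKM in Cdh5Cre and 17.9 FPKM in floxed aortas. These genes were slightly highest in floxed aortas. Otop1, a proton channel used as a brown fat marker, was at 2.55 FPKM in Sm22Cre, 1.68 FPKM in Cdh5Cre and 2.46 FPKM in floxed aortas. Elovl3, a fatty acid elongase induced by cold in brown fat, was at 1.45 FPKM in Sm22Cre, 1.27 FPKM in Cdh5Cre and 1.71 FPKM in floxed aortas. Both were lowest in Cdh5Cre, with log2 ratios to floxed of -0.37 for Otop1 and -0.26 for Elovl3, inside the 1.5-fold limit. Over the 6 thermogenic genes the median log2 ratio was -0.06 in Sm22Cre against floxed and -0.09 in Cdh5Cre against floxed, with none past 1.5-fold in either.

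The regulators of brown fat held the brown genes that differed most, and they differed in opposite directions. Dio2, the deiodinase that makes active thyroid hormone inside the brown adipocyte, stood at 12.8 FPKM in Sm22Cre, 16.7 FPKM in Cdh5Cre and 10.6 FPKM in floxed aortas. Its Cdh5Cre level was 1.57 times the floxed level (log2 ratio 0.61), and the Sm22Cre level was 1.21 times the floxed level (log2 ratio 0.25). Dio2 lies on chromosome 12 at 91962994 to 91989133 (mm9), where a second gene without a symbol is listed, so fragments may be divided between them. Ppara, the nuclear receptor that drives fatty acid oxidation genes, was at 2.94 FPKM in Sm22Cre, 1.67 FPKM in Cdh5Cre and 3.70 FPKM in floxed aortas. The Cdh5Cre level was 2.21-fold lower than floxed as a plain ratio and -0.81 on the log2(FPKM + 1) scale, the lowest brown gene in that comparison. Ppara lies on chromosome 15 at 85565413 to 85633249 (mm9).

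Prdm16, a coregulator that specifies brown adipocytes, stood at 26.0 FPKM in Sm22Cre, 17.4 FPKM in Cdh5Cre and 27.9 FPKM in floxed aortas, and its Cdh5Cre to floxed log2 ratio was -0.65. The authors' status for Prdm16 was FAIL, which marks a failed estimate, in every comparison, and its locus on chromosome 4 is shared with Gm13133 and Gm13134, so its estimate is uncertain. Ppargc1a, the coactivator of mitochondrial biogenesis, was at 1.71 FPKM in Sm22Cre, 1.23 FPKM in Cdh5Cre and 2.13 FPKM in floxed aortas. The Cdh5Cre to floxed log2 ratio of Ppargc1a was -0.49, just short of 1.5-fold, and it passed 1.5-fold with a pseudocount of 0.1. Adrb3, the beta-3 adrenergic receptor of adipocytes, stood at 3.41 FPKM in Sm22Cre, 4.73 FPKM in Cdh5Cre and 3.62 FPKM in floxed aortas. Its status was FAIL in both comparisons that hold Cdh5Cre. Thus Dio2 and Adrb3 were highest in Cdh5Cre, and Ppara, Prdm16 and Ppargc1a lowest there. These values cover all cells of the aorta, so they are not readings of brown adipocytes alone.

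Genes by which brown fat handles fatty acids were level. Slc25a20, the carnitine-acylcarnitine carrier of mitochondria, was at 16.2 FPKM in Sm22Cre, 15.6 FPKM in Cdh5Cre and 17.4 FPKM in floxed aortas. Slc27a2, a very-long-chain acyl-CoA synthetase, was at 2.08 FPKM in Sm22Cre, 1.98 FPKM in Cdh5Cre and 2.07 FPKM in floxed aortas. Plin5, a droplet protein of oxidative tissues, was at 2.86 FPKM in Sm22Cre, 3.81 FPKM in Cdh5Cre and 2.84 FPKM in floxed aortas. Of these 3 genes Plin5 had the widest difference, a Cdh5Cre to floxed log2 ratio of 0.32, within 1.5-fold. Plin5 carried the status FAIL in every comparison, so its estimate is uncertain.

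Among general adipocyte genes, the secreted products included both genes of the list that were higher by 1.5-fold in Cdh5Cre aortas. Cfd, the complement factor adipsin that adipocytes secrete, stood at 173 FPKM in Sm22Cre, 275 FPKM in Cdh5Cre and 147 FPKM in floxed aortas. Its Cdh5Cre level was 1.86 times the floxed level (log2 ratio 0.89), and its Sm22Cre level 1.17 times the floxed level (log2 ratio 0.23). Retn, the adipokine resistin, was at 6.86 FPKM in Sm22Cre, 9.12 FPKM in Cdh5Cre and 5.30 FPKM in floxed aortas. The Cdh5Cre level of Retn was 1.72 times the floxed level (log2 ratio 0.68), and its Sm22Cre level 1.29 times the floxed level (log2 ratio 0.32). Both genes were highest in Cdh5Cre and lowest in floxed aortas. Cfd lies on chromosome 10 at 79353598 to 79355401 and Retn on chromosome 8 at 3655770 to 3660110 (mm9).

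Adiponectin and leptin behaved unlike each other. Adipoq, the most specific adipocyte hormone gene, stood at 33.8 FPKM in Sm22Cre, 37.4 FPKM in Cdh5Cre and 31.0 FPKM in floxed aortas. Lep, the hormone of white fat stores, was at 0.395 FPKM in Sm22Cre, 0.401 FPKM in Cdh5Cre and 0.732 FPKM in floxed aortas. Adiponectin was plain in every group and leptin was under 1 FPKM in every group, with 0.012 FPKM of Lep per FPKM of Adipoq in Sm22Cre, 0.011 in Cdh5Cre and 0.024 in floxed aortas. Ucp1 per FPKM of Adipoq was 1.84 in Sm22Cre, 1.80 in Cdh5Cre and 2.06 in floxed aortas. Of the label's white fat side, leptin was below the minimum, and the genes that reached it are ones that brown and white adipocytes share.

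Droplet and lipolysis genes were level between groups. Plin1, the perilipin that guards the adipocyte droplet, was at 17.4 FPKM in Sm22Cre, 16.7 FPKM in Cdh5Cre and 17.1 FPKM in floxed aortas. Lipe, hormone-sensitive lipase, was at 22.6 FPKM in Sm22Cre, 21.5 FPKM in Cdh5Cre and 20.6 FPKM in floxed aortas. Their highest group was 1.04 times the lowest for Plin1 and 1.09 times for Lipe. Pnpla2, adipose triglyceride lipase, stood at 127 FPKM in Sm22Cre, 154 FPKM in Cdh5Cre and 139 FPKM in floxed aortas. Cidec, which fuses droplets in fat cells, was at 31.5 FPKM in Sm22Cre, 39.5 FPKM in Cdh5Cre and 35.8 FPKM in floxed aortas. Pnpla2 and Cidec were highest in Cdh5Cre and lowest in Sm22Cre, by less than 1.5-fold, and both carried the status FAIL in every comparison.

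The master regulators of adipocyte differentiation differed little. Pparg, the nuclear receptor that sets the adipocyte program, was at 4.89 FPKM in Sm22Cre, 4.26 FPKM in Cdh5Cre and 5.09 FPKM in floxed aortas. Cebpa, its partner transcription factor, was at 15.1 FPKM in Sm22Cre, 16.9 FPKM in Cdh5Cre and 15.6 FPKM in floxed aortas. The Cdh5Cre to floxed log2 ratios were -0.21 for Pparg and 0.11 for Cebpa. Pparg carried the status FAIL in every comparison, so its estimate is uncertain.

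Uptake and binding genes were the most abundant group, and Acsl1 was set apart within it. Fabp4, the fatty acid binding protein of adipocytes that capillary endothelium also expresses, stood at 337 FPKM in Sm22Cre, 361 FPKM in Cdh5Cre and 310.0 FPKM in floxed aortas. It ranked 199th, 233rd and 224th among the genes analysed in the same order of groups. Car3, carbonic anhydrase III of adipocytes and muscle, was at 125 FPKM in Sm22Cre, 124 FPKM in Cdh5Cre and 125 FPKM in floxed aortas. Car3 was the most even of all 34 genes, its highest group being 1.01 times its lowest. Lpl, lipoprotein lipase, was at 61.9 FPKM in Sm22Cre, 83.3 FPKM in Cdh5Cre and 73.5 FPKM in floxed aortas. Slc2a4, the insulin-regulated glucose transporter GLUT4, was at 34.8 FPKM in Sm22Cre, 26.8 FPKM in Cdh5Cre and 36.2 FPKM in floxed aortas. Lpl was lowest in Sm22Cre and Slc2a4 lowest in Cdh5Cre, both by less than 1.5-fold. Acsl1, the acyl-CoA synthetase that activates long-chain fatty acids, stood at 84.4 FPKM in Sm22Cre, 53.6 FPKM in Cdh5Cre and 92.9 FPKM in floxed aortas. Its Cdh5Cre level was 1.73-fold lower than floxed (log2 ratio -0.78), and Sm22Cre was 1.57 times Cdh5Cre. Acsl1 lies on chromosome 8 at 47556395 to 47621405 (mm9).

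Lipid synthesis held 3 of the 6 genes that were lower in Cdh5Cre than in floxed aortas. Scd1, the desaturase that makes oleate, stood at 182 FPKM in Sm22Cre, 116 FPKM in Cdh5Cre and 210.0 FPKM in floxed aortas. Acly, which makes cytosolic acetyl-CoA from citrate, was at 61.0 FPKM in Sm22Cre, 34.8 FPKM in Cdh5Cre and 58.7 FPKM in floxed aortas. Acaca, the acetyl-CoA carboxylase that commits carbon to fatty acids, was at 20.5 FPKM in Sm22Cre, 11.7 FPKM in Cdh5Cre and 19.4 FPKM in floxed aortas. All 3 were lowest in Cdh5Cre, by 1.82-fold for Scd1 (log2 ratio -0.86), 1.69-fold for Acly (log2 ratio -0.74) and 1.66-fold for Acaca (log2 ratio -0.69) against floxed. Fasn, fatty acid synthase, which uses the products of Acly and Acaca, stood at 178 FPKM in Sm22Cre, 162 FPKM in Cdh5Cre and 144 FPKM in floxed aortas. Dgat2, which makes triglyceride, was at 37.2 FPKM in Sm22Cre, 35.4 FPKM in Cdh5Cre and 38.3 FPKM in floxed aortas. Fasn was thus highest in Sm22Cre and lowest in floxed aortas, within 1.5-fold, and did not share the order of Scd1, Acly and Acaca.

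The proportions among these enzymes differed between groups. Scd1 per FPKM of Fasn was 1.02 in Sm22Cre, 0.716 in Cdh5Cre and 1.46 in floxed aortas, and Acly per FPKM of Fasn was 0.343, 0.215 and 0.408 in the same order of groups. Cdh5Cre had the lowest ratio in both cases. The 5 synthesis genes summed to 478 FPKM in Sm22Cre, 359 FPKM in Cdh5Cre and 470.2 FPKM in floxed aortas. Scd1 lies on chromosome 19 at 44468941 to 44482199, Acly on chromosome 11 at 100337667 to 100389314, and Fasn on chromosome 11 at 120667254 to 120685492 (mm9). Acly carried the status FAIL in every comparison, so its estimate is uncertain. Acaca shares its locus with Gm11437 and a gene without a symbol, so its estimate may hold fragments of those genes.

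Promoters of Acly and Acsl1, which were lower in Cdh5Cre, are shown beside that of Fasn, which was not, so that the sequences can be compared. RefSeq promoters on GRCm38.p6 were listed for 24 of the 34 genes, in 30 windows of 300 bases. The windows are chr11:100527951-100528250 (minus strand) for Acly, chr8:46470787-46471086 (plus strand, the first of 2 windows) for Acsl1 and chr11:120824498-120824797 (minus strand) for Fasn. Capitals mark matches, on either strand, to the CCAAT box or the GC box.
Acly: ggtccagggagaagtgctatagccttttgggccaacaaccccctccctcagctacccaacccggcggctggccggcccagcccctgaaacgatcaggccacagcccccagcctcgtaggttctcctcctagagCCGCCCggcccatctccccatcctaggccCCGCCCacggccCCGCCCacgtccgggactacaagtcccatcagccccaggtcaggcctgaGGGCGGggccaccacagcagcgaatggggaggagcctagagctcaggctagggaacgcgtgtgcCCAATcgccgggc
Acsl1: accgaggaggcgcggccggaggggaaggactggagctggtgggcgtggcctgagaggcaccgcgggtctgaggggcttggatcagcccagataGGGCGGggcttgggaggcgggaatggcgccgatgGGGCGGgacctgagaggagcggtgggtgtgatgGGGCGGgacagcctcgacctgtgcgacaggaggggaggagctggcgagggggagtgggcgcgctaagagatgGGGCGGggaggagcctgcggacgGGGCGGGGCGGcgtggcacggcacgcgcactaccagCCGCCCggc
Fasn: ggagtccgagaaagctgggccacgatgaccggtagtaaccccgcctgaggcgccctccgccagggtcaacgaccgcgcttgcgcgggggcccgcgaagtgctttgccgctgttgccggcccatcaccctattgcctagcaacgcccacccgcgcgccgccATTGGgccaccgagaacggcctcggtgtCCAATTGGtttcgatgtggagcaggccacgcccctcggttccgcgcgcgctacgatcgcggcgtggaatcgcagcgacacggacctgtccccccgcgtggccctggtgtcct

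The Acly window holds 4 GC boxes and 1 CCAAT box, the Acsl1 window 7 GC boxes, some of them overlapping, and the Fasn window 3 CCAAT boxes, of which a pair overlaps on opposite strands. The GC box, searched as GGGCGG, was found in 15 of the 30 windows of fat genes and in 35.7% of all 32851 RefSeq promoter windows of the same length. The CCAAT box, searched by those letters, was found in 9 of 30 windows and in 37.4% of all windows. The TATA box, searched as TATAAA, was found in 3 of 30 windows (Cebpa, Dio2 and Pparg) and in 13.6% of all. The E box, searched as CACGTG, was found in 1 window (Lipe) and in 7.15% of all. The sterol regulatory element, searched as TCACNCCAC, was found in 1 window, the second one of Acsl1, which is not printed, and in 1.24% of all windows. These matches describe letters in a short window and no binding.

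Sm22Cre against floxed left all 33 fat genes within 1.5-fold. The widest ratios were those of Retn at 0.32, Fasn at 0.30 and Dio2 at 0.25 on the higher side, and of Ppara at -0.26, Lpl at -0.24 and Kcnk3 at -0.23 on the lower side. No fat gene was higher by 1.5-fold, against 0.619% of the 14225 genes analysed, and none was lower, against 0.921%. None passed 2-fold, against 0.633% of all genes. Ratios above 0 were found for 4 of 14 brown genes and 9 of 19 general genes, beside 52.0% of all genes. The median log2 ratio was -0.07 over brown genes and -0.01 over general genes, beside 0.005 over all genes, and brown minus general was -0.06. With so few genes of any kind past 1.5-fold in this comparison, a count of 0 among 33 genes is near the background.

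Cdh5Cre against floxed set single fat genes apart in both directions, with list medians near 0. Higher by 1.5-fold were 3 of 33 genes (Cfd, Retn and Dio2), a share close to the 8.33% of all genes analysed. Lower by 1.5-fold were 6 of 33 genes (Scd1, Ppara, Acsl1, Acly, Acaca and Prdm16), against 6.02% of all genes. None passed 2-fold on the log2(FPKM + 1) scale, against 1.89% of all genes. Ratios above 0 were found for 5 of 14 brown genes and 10 of 19 general genes, beside 51.7% of all genes. The split of 3 higher and 6 lower became 1 higher (Cfd) and 8 lower, with Slc2a4 and Ppargc1a added, when each group was rescaled to its FPKM sum without mitochondrial and globin genes, a step that lowered the median of all genes by 0.17. The shares of 8.33% and 6.02% belong to values before that step, so they are no background for the rescaled split.

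Brown and general genes had close medians in that comparison. The median log2 ratio was -0.09 over the 14 brown genes and 0.06 over the 19 general genes, beside 0.02 over all genes, and brown minus general was -0.15. The sign of the general median turned under quantile normalization, rescaling and removal of the length trend, at -0.04, -0.13 and -0.17. The spread within each list was far wider than the distance between them, as brown ratios ran from -0.81 (Ppara) to 0.61 (Dio2) and general ratios from -0.86 (Scd1) to 0.89 (Cfd).

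Sm22Cre against Cdh5Cre, a comparison that shares the Cdh5Cre values with the one above, set the synthesis enzymes on the higher side for Sm22Cre. Higher by 1.5-fold in Sm22Cre were 4 of 33 genes (Acly at 0.79, Acaca at 0.76, Scd1 at 0.65 and Acsl1 at 0.64), against 4.34% of all genes. The status of Acly was FAIL here too. Lower in Sm22Cre was 1 of 33 (Cfd at -0.66), against 7.57% of all genes. None passed 2-fold, against 1.63% of all genes, and ratios above 0 were found for 8 of 14 brown and 11 of 19 general genes, beside 49.1% of all genes. The median was 0.03 over brown genes and 0.06 over general genes, and brown minus general was -0.03. That difference was 0.15 without the 5 synthesis enzymes and -0.18 among genes of at least 5 FPKM. After rescaling without mitochondrial and globin genes the split of 4 higher and 1 lower became 6 higher, with Ppara and Prdm16 added, and 0 lower. That step raised the median of all genes by 0.17, so 4.34% and 7.57% are no background for the rescaled split. With the trend on transcript length and GC content removed, described below, the split became 1 higher (Acly at 0.74) and 2 lower (Dio2 at -0.71 and Lpl at -0.70). Of all 12317 genes with a coding transcript, 126 were higher and 383 lower with that trend removed. Acsl1 at 0.53, Acaca at 0.47, Scd1 at 0.43 and Cfd at -0.15 then no longer passed.

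**Figure D2:**
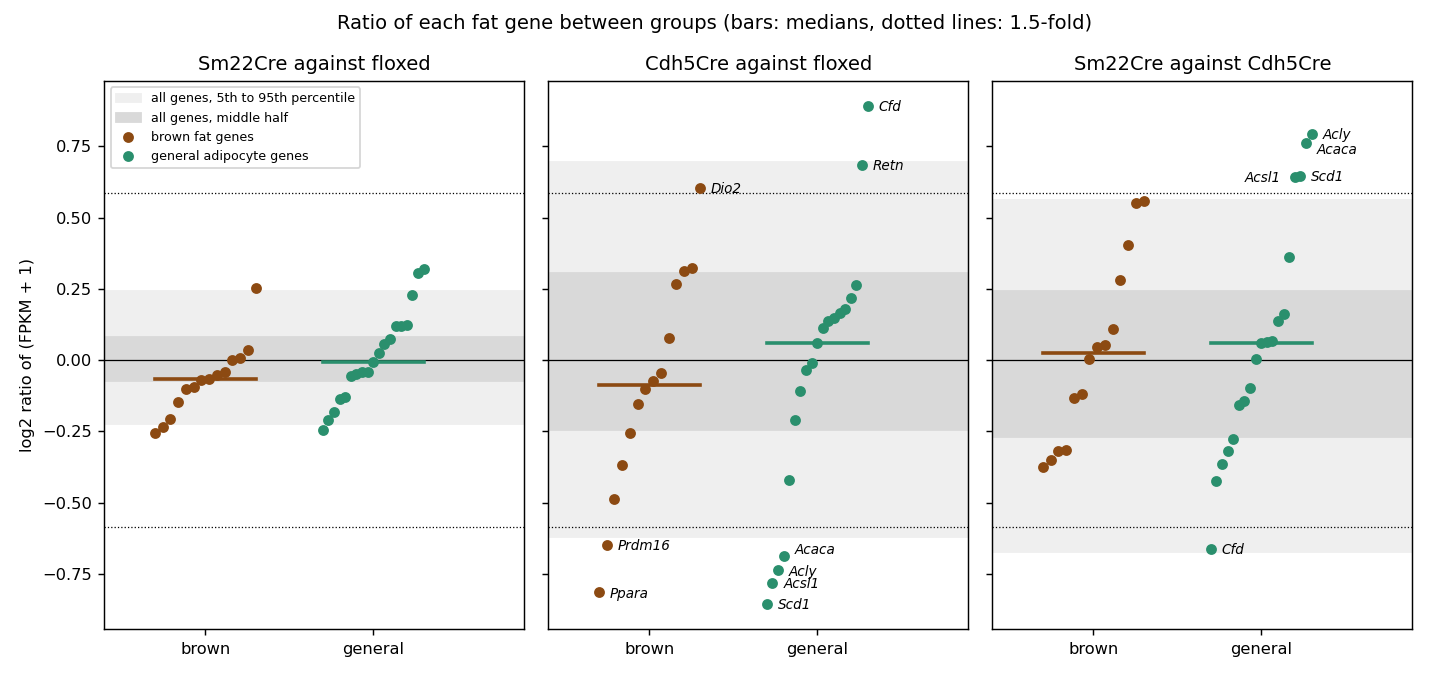
Log2 ratio of (FPKM + 1) of each fat gene in the 3 comparisons, brown genes left and general genes right in each panel, with bars at the medians, dotted lines at 1.5-fold and grey bands for the spread of all genes analysed. In Sm22Cre against floxed every point lies between the dotted lines, from -0.26 (Ppara) to 0.32 (Retn), and in Cdh5Cre against floxed 9 named genes lie outside them.

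The Cdh5Cre ratios followed transcript length and GC content over the whole transcriptome, and the fat genes shared mainly the relation to length. Over 12317 genes with a coding transcript, Spearman's rho between length and the Cdh5Cre to floxed log2 ratio was -0.58, and a smooth trend on length and GC content held 45.3% of the variance. The same trend held 3.72% when Sm22Cre was set against floxed, and 46.8% when it was set against Cdh5Cre. Over the 33 fat genes rho with length was -0.50, a description across genes that share their libraries. Spearman's rho with GC content was 0.53 over all those genes and 0.19 over the fat genes. With the trend removed, rho with length was -0.25 over the fat genes and -0.01 over all genes. The 20 fat genes with transcripts shorter than the median of all genes, 3120 bases, had a median log2 ratio of 0.10, with 11 ratios above 0 and 9 below 0. The 13 longer ones had a median of -0.49, with 4 ratios above 0 and 9 below 0. Cfd and Retn are short (922 and 1139 bases), while Scd1, Acly, Acaca and Prdm16 have long transcripts (4832, 4426, 9513 and 8601 bases).

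**Figure D3:**
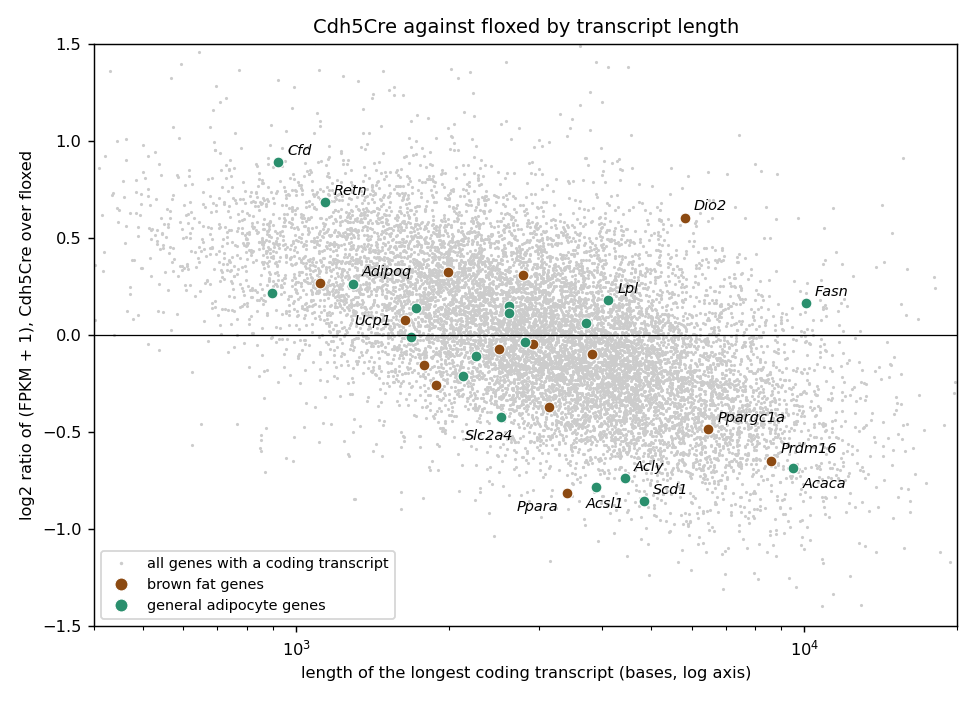
Log2 ratio of Cdh5Cre over floxed against the length of the longest coding transcript (bases, log axis) for all genes (grey) and the fat genes (brown and green). Cfd at 0.89 lies at the short end and Scd1 at -0.86 among longer transcripts, while the long transcripts of Dio2 (0.61), Lpl (0.18) and Fasn (0.17) lie above the grey cloud's centre at their length.

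With that trend removed, the enzymes Acly, Acsl1 and Scd1 and the receptor Ppara stayed lower by 1.5-fold in Cdh5Cre than in floxed aortas, and Dio2 stayed higher. The trend-removed log2 ratios were -0.67 for Acly (status FAIL), -0.66 for Acsl1, -0.63 for Scd1, -0.80 for Ppara and 0.99 for Dio2. Slc2a4 came to -0.59, which passed 1.5-fold, where it had been at -0.42. Cfd at 0.35, Retn at 0.41, Prdm16 at -0.43 and Acaca at -0.32 no longer passed. Thus 1 of 33 genes was higher, against 3.09% of the 12317 genes, and 5 were lower, against 1.76%. Ppargc1a moved to -0.03 and Lpl to 0.45. The brown and general medians came together at -0.18 and -0.17, and the median of all genes was -0.01.

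**Figure D4:**
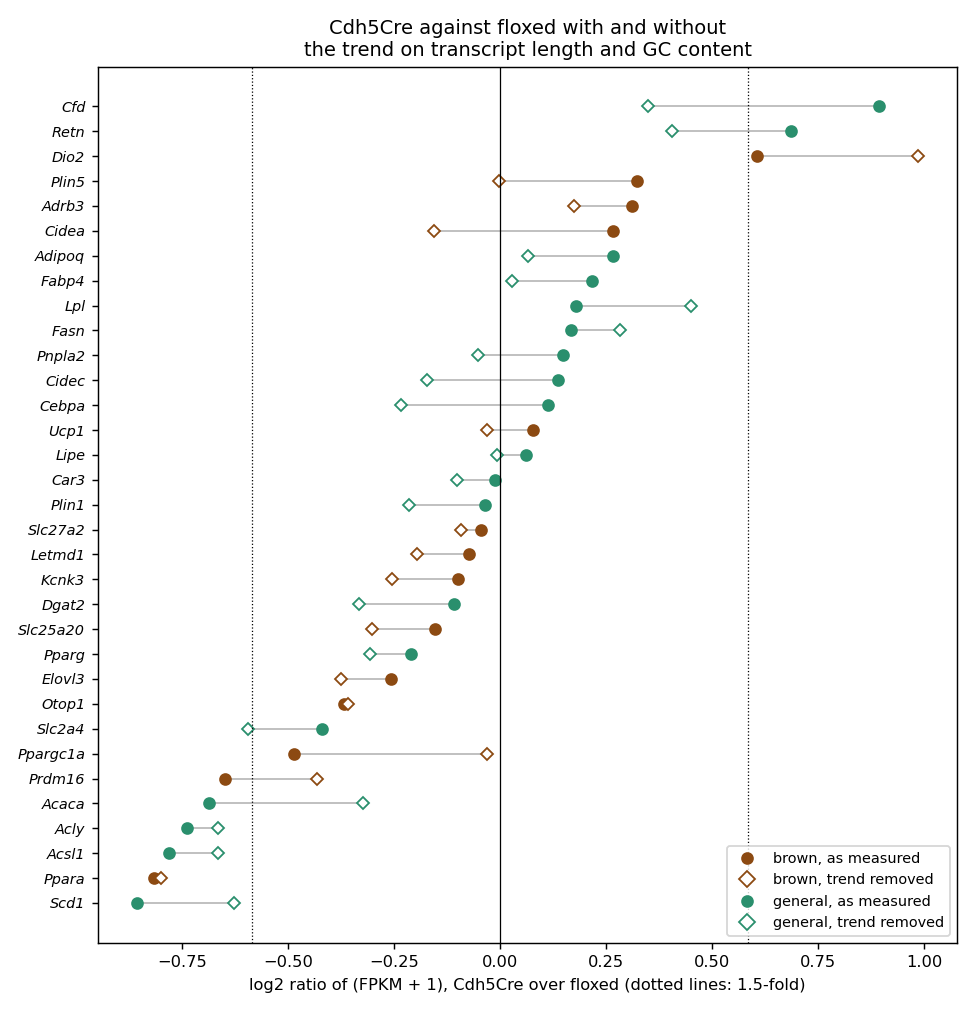
Log2 ratio of Cdh5Cre over floxed of 33 fat genes as measured (filled) and with the trend on transcript length and GC content removed (open), with dotted lines at 1.5-fold. Cfd moves inwards from 0.89 to 0.35 and Ppargc1a from -0.49 to -0.03, whereas Dio2 moves outwards to 0.99 and Ppara, Acsl1, Acly and Scd1 remain below the lower dotted line.

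As measured, some genes of brown fat that striated muscle also expresses differed between groups where Ucp1 did not. The list holds 9 genes, Kcnk3 among them. Cox8b, a subunit of cytochrome oxidase in brown fat and heart, stood at 54.8 FPKM in Sm22Cre, 104.7 FPKM in Cdh5Cre and 66.3 FPKM in floxed aortas. Fabp3, the heart-type fatty acid binding protein, was at 40.3 FPKM in Sm22Cre, 86.5 FPKM in Cdh5Cre and 56.1 FPKM in floxed aortas. Ckmt2, the sarcomeric mitochondrial creatine kinase, was at 6.84 FPKM in Sm22Cre, 22.7 FPKM in Cdh5Cre and 13.3 FPKM in floxed aortas. All 3 were highest in Cdh5Cre and lowest in Sm22Cre. In Cdh5Cre against floxed 5 of the 9 (Ckmt2, Cox8b, Cox7a1, Fabp3 and Eno3) were higher by 1.5-fold, beside 8.33% of all genes. Lower was 1 (Pdk4, the kinase that restrains glucose oxidation, at -0.71), beside 6.02%, and the median was 0.60. In Sm22Cre against floxed 1 was lower (Ckmt2 at -0.87), beside 0.921% of all genes, and none higher, beside 0.619%. The median there was -0.27. Slc25a4 at -0.01 and Cpt1b at -0.05 (both with status FAIL) and Kcnk3 at -0.10 were level in Cdh5Cre against floxed. With the length trend removed none of the 9 passed in Cdh5Cre against floxed, and the median was 0.01. The 6 thermogenic genes then had a median of -0.23, with 6 ratios below 0 and 0 past 1.5-fold, so the contrast with the shared genes rests on the values as measured.

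The summed level of heart muscle markers had the same order of groups. The 14 markers, all detected, summed to 483 FPKM in Sm22Cre, 1639 FPKM in Cdh5Cre and 1050.3 FPKM in floxed aortas. Myh6, the alpha myosin heavy chain of heart, stood at 40.5 FPKM in Sm22Cre, 125 FPKM in Cdh5Cre and 97.2 FPKM in floxed aortas. In Sm22Cre against floxed 14 of 14 ratios were below 0 and 12 were lower by 1.5-fold, beside 0.921% of all genes. Both counts were the same with the length trend removed. In Cdh5Cre against floxed 13 of 14 ratios were above 0, at a median of 0.58. Of these 6 were higher by 1.5-fold, beside 8.33% of all genes. With the length trend removed 1 passed, beside 3.09%, at a median of 0.26. Of 11 skeletal muscle markers 4 reached 1 FPKM, and the list summed to 15.3 FPKM in Sm22Cre, 43.1 FPKM in Cdh5Cre and 23.5 FPKM in floxed aortas. Ckm, the muscle creatine kinase that heart also expresses, was the highest of the 4 in every group, at 7.19 FPKM in Sm22Cre, 31.0 FPKM in Cdh5Cre and 14.3 FPKM in floxed aortas. Its log2 ratio was 1.07 in Cdh5Cre against floxed, past 2-fold, and -0.90 in Sm22Cre against floxed. The skeletal myosin Myh1 peaked at 0.025 FPKM and Myh4 is listed at 0 in Sm22Cre and Cdh5Cre. The part of striated muscle in the values of the shared genes was not tested. Cox8b per FPKM of Ucp1 was 0.885 in Sm22Cre, 1.55 in Cdh5Cre and 1.04 in floxed aortas, and Ucp1 per FPKM of Myh6 was 1.53, 0.538 and 0.656 in the same order of groups.

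**Figure D5:**
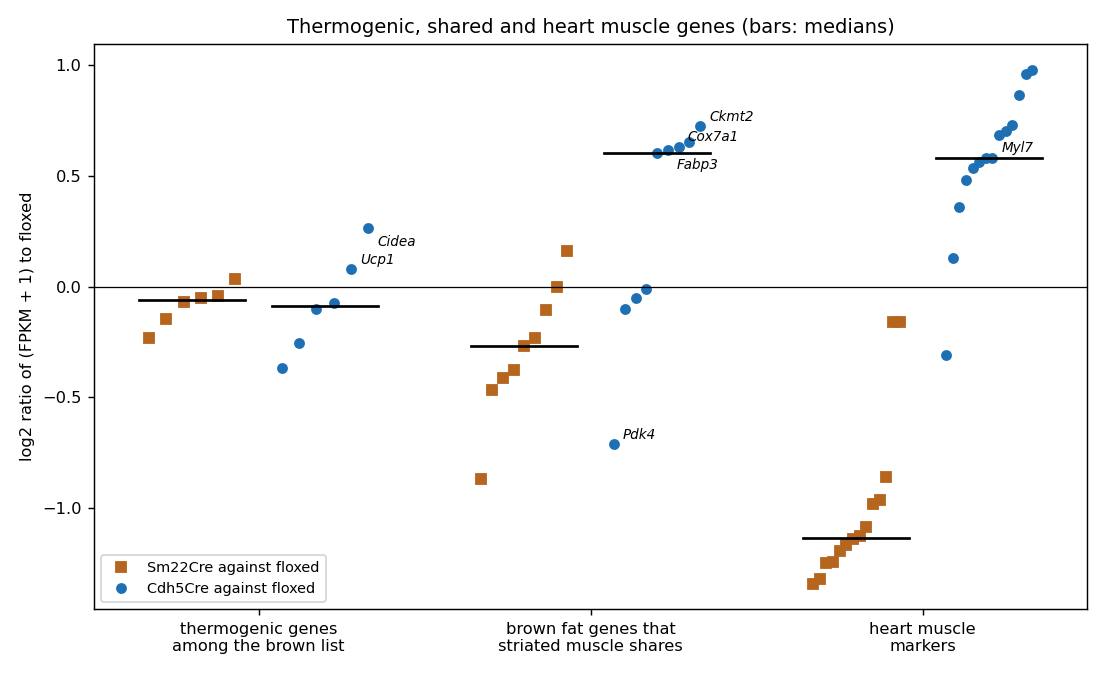
Log2 ratio of (FPKM + 1) to floxed for the 6 thermogenic genes, the 9 brown fat genes shared with striated muscle and the 14 heart muscle markers, squares Sm22Cre and circles Cdh5Cre, bars at the medians. The medians of the thermogenic genes lie at -0.06 and -0.09, those of the shared genes at -0.27 and 0.60, and those of heart muscle at -1.13 and 0.58.

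Other genes of the same pathways were read as lists, beside the following shares of all genes past 1.5-fold. Cdh5Cre against floxed had 8.33% higher and 6.02% lower, and 3.09% and 1.76% with the length trend removed. Sm22Cre against floxed had 0.619% higher and 0.921% lower, and Sm22Cre against Cdh5Cre 4.34% and 7.57%. Fatty acid oxidation was level, with 0 of 20 genes past 1.5-fold in any comparison and medians of -0.01 in Sm22Cre against floxed and -0.08 in Cdh5Cre against floxed. Among the partners of lipid synthesis, of 16 genes that reached 1 FPKM, 13 had a ratio below 0 in Cdh5Cre against floxed, where 51.7% of all genes had one above 0, and the median was -0.23. The 2 lower by 1.5-fold were Elovl6, the elongase that lengthens palmitate (2.48 FPKM in Cdh5Cre and 5.12 FPKM in floxed aortas), and Lpin1, a phosphatidate phosphatase (7.70 and 12.2 FPKM, status FAIL). With the length trend removed Elovl6 at -0.44 and Lpin1 at -0.42 no longer passed, and Slc25a1, the mitochondrial citrate carrier, passed at -0.63 (status FAIL). Srebf1, the transcription factor of this program, was at 68.5 FPKM in Sm22Cre, 62.1 FPKM in Cdh5Cre and 73.5 FPKM in floxed aortas, and Mlxipl, the carbohydrate response factor, at 5.87, 6.00 and 5.21 FPKM. Neither factor passed 1.5-fold.

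Among 15 lipolysis partners, G0s2, an inhibitor of adipose triglyceride lipase, was higher in Cdh5Cre (36.1 FPKM) than in floxed aortas (22.4 FPKM), at a log2 ratio of 0.67, and none was lower by 1.5-fold. With the length trend removed G0s2 was at 0.15, and Gpd1, the glycerol phosphate dehydrogenase, passed on the lower side at -0.62. In Sm22Cre against floxed the only one past 1.5-fold was Fitm1, a droplet protein of muscle, lower at -0.90 (status FAIL). It stood at 1.14 FPKM in Sm22Cre, near the minimum, and 3.00 FPKM in floxed aortas, and shares its locus with Dcaf11 among others. Of 23 other regulators of thermogenesis 13 reached 1 FPKM. Cebpb, an early adipogenic factor, was higher in Cdh5Cre (17.3 FPKM) than in floxed aortas (9.35 FPKM), and Zfp516, which activates the Ucp1 promoter in mice, was lower (4.92 and 8.21 FPKM, status FAIL), while none passed 1.5-fold in Sm22Cre against floxed. Neither passed with the length trend removed, Cebpb moving to 0.31 (0.82 as measured) and Zfp516 to -0.46 (-0.64 as measured). Among further adipocyte genes Rbp4, the retinol carrier, and Nnat were higher in Cdh5Cre than in floxed aortas. Rbp4 was at 150.3 FPKM in Cdh5Cre and 89.1 FPKM in floxed aortas, a log2 ratio of 0.75. With the length trend removed Rbp4 at 0.34 and Nnat at 0.30 no longer passed.

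Markers of other cells also differed between groups, and their part in the fat gene values was not tested. The 7 red cell genes summed to 9036 FPKM in Sm22Cre, 25474 FPKM in Cdh5Cre and 4024 FPKM in floxed aortas, and all 7 were highest in Cdh5Cre. The 7 platelet and neutrophil genes summed to 89.5, 284 and 42.8 FPKM in the same order of groups. The 10 fibroblast markers summed to 3116 FPKM in Sm22Cre, 4883 FPKM in Cdh5Cre and 3180.2 FPKM in floxed aortas. Of these 4 were higher and 0 lower by 1.5-fold in Cdh5Cre against floxed, beside 8.33% and 6.02% of all genes. The 12 endothelial markers summed to 416 FPKM in Sm22Cre, 576 FPKM in Cdh5Cre and 371 FPKM in floxed aortas, with 5 higher and 0 lower. In Sm22Cre against floxed none of the fibroblast or endothelial markers passed 1.5-fold, beside 0.619% of all genes higher and 0.921% lower. Smooth muscle markers (10 of 11 analysed) did not pass 1.5-fold against floxed in either Cre group. Of 10 macrophage markers 2 were lower in Cdh5Cre (Mrc1 at -0.75 and Adgre1 at -0.59), beside 6.02% of all genes. With the length trend removed 0 of 10 macrophage markers passed, against 3 fibroblast and 5 endothelial markers on the higher side. The shares of all genes were then 3.09% higher and 1.76% lower.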

How the data were processed

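RNA was purified from frozen aorta, poly-A RNA was selected, and stranded libraries were read as paired ends of 75 bases on a HiSeq4000, per the labels' protocols. Cufflinks 1.3.0, SAMtools 0.1.7, TopHat2 2.0.8, Bowtie2 2.1.0 and the mouse build mm9 are named in the submitters' processing notes, with no role or order. The deposited table, per its file headers, gives 2 FPKM values per gene and pair of groups, which are the authors' values for whole groups, in 113004 rows for 37668 genes in 3 pairs. Library depth is unknown. A status other than OK was listed for some genes: 27 of the 34 fat genes had OK in every pair, and the others were kept. The status HIDATA removed 7 genes.

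Genes with at least 1 FPKM in 1 group were analysed, with a pseudocount of 1 and a threshold of 1.5-fold. All 34 fat genes, Agtr1a, and from each other list up to 4 members with the largest ratios plus defining markers of heart muscle, smooth muscle and blood are named; values of other list members are given where a count of 5 or fewer falls on them or where their role is described, and these were chosen after their values were seen. The fat genes, the lists and the thresholds were chosen with earlier results of these data known. GENCODE M21 gave symbols, transcript lengths and GC content, not positions. Starts were taken as counted from 0. The trend was a quadratic surface on log2 length and GC content over 12317 genes, checked on simulated data. Of the list symbols 4 (Lhx8, Tusc5, Pref1 and Ccl21a) matched no gene. Promoters and their build come from RefSeq tables. Python 3.11.15, pandas 2.3.3, numpy 2.4.6 and matplotlib 3.10.9 were used. A result among the further adipocyte genes is not reported here.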

Additional observations from a re-analysis of the deposited data

How the results depend on the processing

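Of 105 alternative values of the list results, 91 moved by no more than 0.1 on the log2 scale or 1.5 times in a count, and 14 moved further. Of 751 alternative values of single fat genes 607 stayed within 0.1, 144 moved further and 0 turned a ratio past 1.5-fold to the opposite sign. Many of the 607 could not move, as filters on low values or on status leave a single ratio unchanged. Subtracting the median of all genes hardly changes it. Moves came with a pseudocount of 0.1 (7 of 99), quantile normalization (22 of 99), removal of the trend (49 of 99) and rescaling (66 of 99). Rescaling to the sum without mitochondrial and globin genes shifted the median of all genes by -0.17 in Cdh5Cre against floxed and 0.17 in Sm22Cre against Cdh5Cre. It gave Cdh5Cre to floxed medians of -0.27 (brown) and -0.13 (general), and Sm22Cre to Cdh5Cre medians of 0.18 and 0.24. Quantile normalization gave a Cdh5Cre to floxed general median of -0.042 and brown minus general of -0.033. Removing the length and GC trend gave -0.17 and -0.0048 for the same quantities and 3 genes past 1.5-fold in Sm22Cre against Cdh5Cre (Acly higher, Dio2 and Lpl lower). Of all 12317 genes with a coding transcript, 126 were higher and 383 lower in that setting. At 2-fold 0 genes passed in Cdh5Cre against floxed and 0 in Sm22Cre against Cdh5Cre. With at least 5 FPKM the Sm22Cre to Cdh5Cre brown median was -0.12 and brown minus general -0.18, over the 7 brown genes left. Without the 5 synthesis enzymes that difference was 0.15. No paired analysis was possible because each group has 1 value, and for the same reason leaving out single replicates was not run. The cause of these shifts was not tested beyond the alternatives' own construction.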

Other observations

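Markers of adipocyte progenitors and of nerves around the aorta were read beside the fat genes. Pi16, a marker of adventitial progenitors and fibroblasts, stood at 219.8 FPKM in Sm22Cre, 478 FPKM in Cdh5Cre and 207 FPKM in floxed aortas, and Ly6a, the progenitor antigen Sca-1, was at 106, 202 and 96.7 FPKM in the same order of groups. Both passed 2-fold in Cdh5Cre against floxed, also as a plain ratio. They were 2 of 9 progenitor markers, beside 1.89% of all genes higher or lower by 2-fold. Pi16 is also on the fibroblast list. With the length trend removed Pi16 was at 1.17 (status FAIL) and Ly6a at 0.74. The 9 progenitor markers analysed had a median log2 ratio of 0.44 there and 0.01 in Sm22Cre against floxed. Pdgfra, a marker of adipose stromal cells at large, was at 23.6 FPKM in Sm22Cre, 25.2 FPKM in Cdh5Cre and 25.7 FPKM in floxed aortas, so the progenitor list did not move as 1 block.

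Genes of noradrenaline synthesis were near the floor, with Th, the tyrosine hydroxylase of sympathetic nerves, highest at 0.246 FPKM (Cdh5Cre) and Dbh highest at 0.043 FPKM (floxed). Npy, a peptide of sympathetic nerves that platelets of mice also hold, was at 3.15 FPKM in Sm22Cre, 8.37 FPKM in Cdh5Cre and 2.74 FPKM in floxed aortas. The 8 mesothelial markers, all detected, had ratios below 0 in 8 of 8 cases in Sm22Cre against floxed, at a median of -0.40. None was lower by 1.5-fold, beside 0.921% of all genes. In Cdh5Cre against floxed 8 of 8 were above 0, at a median of 0.36. Higher by 1.5-fold there were 2, beside 8.33% of all genes, and 0 with the length trend removed, beside 3.09%. Of 7 lymphocyte markers found, 4 reached 1 FPKM, and 3 of those were higher by 1.5-fold in Cdh5Cre than in floxed aortas, beside 8.33% of all genes. With the length trend removed, a value that 3 of the genes had, 0 passed. Of the 22 other thermogenic regulators found, 9 were under 1 FPKM in every group, among them Irf4 (highest at 0.802 FPKM), Zic1 (highest at 0.224 FPKM) and Hoxc9 (highest at 0.0051 FPKM).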
